A study of Mus musculus with 6 samples.

Results

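The thin filament of the cardiac sarcomere is described here through the genes for its actin, troponin, tropomyosin and pointed-end proteins, in nuclear RNA of HL-1, an immortal mouse cardiomyocyte line of atrial tumour origin. Members were chosen by gene symbol, with earlier results of these data known. Of 10 symbols listed, 9 had a row in the table (Actc1, Tnnt2, Tnni3, Tnni1, Tnnc1, Tpm1, Tpm2, Tmod1 and Lmod2), out of 28660 loci in all. Acta1, the skeletal alpha-actin gene, was not analysed here. All cells were grown in Claycomb medium with serum, L-glutamine and norepinephrine, and their detergent-released nuclei were separated into chromatin pellet and soluble nuclear extracts. Each fraction gave 3 libraries, described as biological replicates, so the 2 groups differ by fraction only and share cell line and culture. The authors pooled the 3 libraries of a fraction into 1 FPKM value per locus (fragments scaled by transcript length and library size), so every value below is a single pooled one, with no replicate error and no p-value. Library depth is unknown, because FPKM holds no counts.

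In the thin filament, actin monomers form a double-stranded polymer along which tropomyosin dimers run, with a troponin complex at regular intervals. Troponin T anchors the complex to tropomyosin, troponin I holds the actin site closed, and troponin C binds calcium and releases that block, which lets myosin heads attach. Tropomodulin caps the pointed end of the filament, and leiomodin acts at the same end and promotes elongation. In the heart, Tnni1 encodes the slow skeletal troponin I that is typical of the fetal heart, and Tnni3 the cardiac form that replaces it after birth.

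Levels of thin filament messages ran from rank 14 (Tnnt2) to rank 5344 (Lmod2) among protein-coding loci in the soluble extract, and their balance between fractions differed by member. The log2 of pellet over soluble level was computed after multiplying pellet FPKM by 3.37, the factor that equalises the ERCC spike-in RNAs added to each fraction. This is called the spike-in scale, and it reads as more RNA in a fraction only if equal spike-in amounts were added. On it, Lmod2, Tpm1 and Tmod1 lay slightly towards the pellet, Actc1, Tnnt2 and Tpm2 slightly towards the soluble extract, and Tnni3, Tnnc1 and Tnni1 at least 2-fold towards the soluble extract. Thus 3 of 9 members were at least 2-fold lower in the pellet, against 10.5% of all 13917 loci whose FPKM averaged 0.5 or more over both fractions and 10.6% of the 11397 protein-coding ones. None of the 9 was at least 2-fold higher, against 31.9% of all loci and 24.0% of protein-coding ones. These shares vary with level. Actc1, Tnni3, Tnni1, Tpm1 and Tpm2 averaged between 50 and 500 FPKM, where 40.7% of protein-coding loci were at least 2-fold lower and 6.56% higher. Between 5 and 50 FPKM, where Tnnc1, Tmod1 and Lmod2 lay, the shares were 8.92% lower and 21.4% higher. The members' median was -0.51, beside 0.41 for all loci and 0.26 for protein-coding loci. Leaving the factor out gives the FPKM scale, a constant shift of each log2 fold by 1.75 towards the soluble extract. There all 9 members were at least 2-fold lower in the pellet, against 61.2% of all loci and 68.2% of protein-coding ones, and 0 were at least 2-fold higher, against 9.66% and 2.25%. On that scale the members' median was -2.26, beside -1.34 for all loci. Both scales are in the deposited table. The order of the members and the differences between them are the same on both scales.

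A technical error can be had only from how far single spike-ins depart from their common factor, which covers library preparation and sequencing but not the fractionation or the cultures. Among the 25 spike-ins that averaged 5 FPKM or more, a level that all 9 members exceed, the log2 residuals had an SD of 0.094 and ranged from -0.22 to 0.13. A difference between the log2 folds of 2 genes is called beyond that scatter where it exceeds 0.26, the half-width that holds 95% of such differences between spike-ins if they are normal. By that measure the 9 genes fell into 4 steps: Lmod2, Tpm1 and Tmod1; then Actc1; then Tnnt2 with Tpm2; then Tnni3, Tnnc1 and Tnni1. Neighbouring genes within a step did not differ beyond the scatter, and the gaps between steps were 0.41, 0.36 and 0.42. The ends of the order, Lmod2 and Tnni1, were 1.75 apart on the log2 scale.

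**Figure D1:**
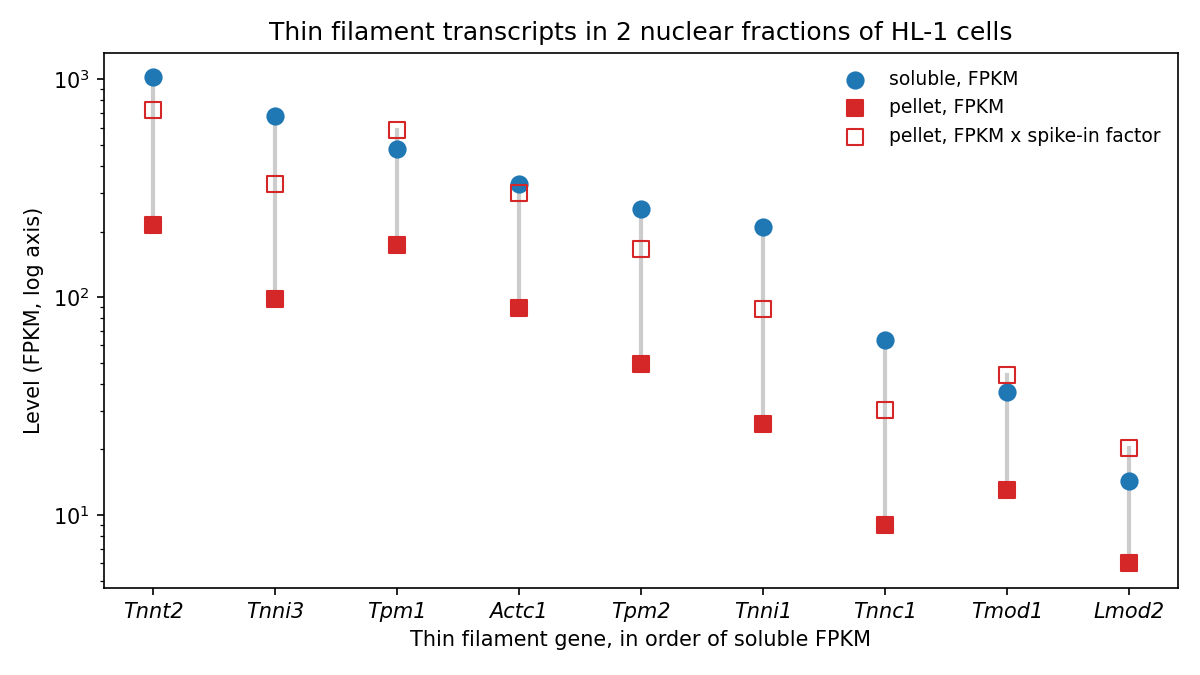
Level of the 9 thin filament genes in FPKM on a log axis, with 1 pooled value per fraction: filled circles are the soluble extract, filled squares the pellet, and open squares the pellet times the spike-in factor. Soluble FPKM exceeds pellet FPKM in all 9 genes, while the open square lies above the circle only for Tpm1, Tmod1 and Lmod2.

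The markers of the labelled cell type were checked in the same values. All 7 atrial markers passed 0.5 FPKM, with a summed level of 1541 FPKM in the soluble extract and 211.8 in the pellet, led by Myl7, the atrial regulatory light chain. In the soluble extract Myl7 had 1118.7 and Myl4 367.2 FPKM, and the others were at most 18.1. Nppa passed narrowly, with 1.63 FPKM in the soluble extract and 0.208 in the pellet. Of 5 ventricular markers, 4 had a row and 0 passed, with sums of 1.18 and 0.758 FPKM. Of 7 general cardiomyocyte markers, the 5 with a row all passed. Markers of other cells were not absent: 5 of 6 smooth muscle markers passed, with summed levels of 1941 FPKM in the soluble extract and 300.0 in the pellet. Acta2 led them at 1539 FPKM in the soluble extract, followed by Tagln at 381.1, and the others were at most 18.4. Among those, Cnn1 had 1.43 and Myh11 0.867 FPKM in the soluble extract. Of 6 fibroblast markers, 5 had a row and 3 passed. Col3a1 alone had 340.5 of their summed 346.5 FPKM in the soluble extract, and the others were at most 3.59. Of 5 endothelial markers 2 passed, with sums of 7.05 and 2.45 FPKM, and of 8 fast skeletal muscle markers 4 passed. The part of other cell types or of a mixed programme in the thin filament values was not tested. In bulk RNA, fewer cells of a type and less RNA per cell cannot be told apart.

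Tnnt2 (ENSMUSG00000026414.9, chromosome 1, 135836354 to 135852260 in mm10), the gene for cardiac troponin T, was the most abundant member in both fractions. It had 1021.6 FPKM in the soluble extract and 213.4 in the pellet. Among protein-coding loci this was rank 14 in the soluble extract and rank 9 in the pellet. Its log2 fold was -0.51 on the spike-in scale and -2.26 on the FPKM scale. Few messages are as abundant: 20 protein-coding loci averaged 500 FPKM or more, 90.0% of them were at least 2-fold lower in the pellet, and their median was -1.45. Tnnt2 stayed within 2-fold, and 90.0% of that small group lay below it.

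Tnni3 (ENSMUSG00000035458.10, chromosome 7, 4518305 to 4532453) followed in the soluble extract. This cardiac troponin I gene had 680.4 FPKM there and 98.4 in the pellet, and its log2 fold was -1.04. In the pellet it came after Tpm1. It stands 0.04 past the 2-fold line, which is less than the spike-in SD, and with the median spike-in ratio as the factor it had -0.98 and no longer passed.

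Tnni1 (ENSMUSG00000026418.12, chromosome 1, 135779434 to 135810989), the slow skeletal and fetal cardiac troponin I gene, had the lowest pellet fold of the members. Its level was 210.2 FPKM in the soluble extract and 26.2 in the pellet, and the log2 fold was -1.25. Both troponin I genes were thus expressed, with Tnni3 above Tnni1 by 3.24 times in the soluble extract and 3.75 times in the pellet. These ratios are taken within a fraction and do not depend on the spike-ins. The 2 genes' folds differed by 0.21, which is not beyond the spike-in scatter.

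Tnnc1 (ENSMUSG00000091898.4, chromosome 14, 31170930 to 31216946) encodes the cardiac and slow skeletal troponin C. Its level was well below those of its partners in the troponin complex, with 63.3 FPKM in the soluble extract and 9.01 in the pellet. Its log2 fold was -1.06, and with 1 FPKM added to both fractions it was -0.93, within 2-fold. Per length, Tnnt2 exceeded Tnnc1 by 16.1 times in the soluble extract and 23.7 times in the pellet. Tnni3 exceeded it by 10.8 and 10.9 times. Tnni3 and Tnnc1 messages were therefore split between the fractions in nearly the same ratio (difference 0.02). Tnnt2 lay towards the pellet relative to both, by 0.53 against Tnni3 and 0.55 against Tnnc1.

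The coordinates of Tnnc1 in the table are shared with Nisch, the gene for nischarin, an integrin-binding protein. Nisch had 157.7 FPKM in the soluble extract and 103.3 in the pellet, and its log2 fold was 1.14. The 2 genes of this locus thus lay on opposite sides on the spike-in scale, 2.20 apart. In all, 4 members shared their coordinates with other loci and 5 did not. How fragments of overlapping genes were divided is not stated by the labels or the file. Tnni3 shared its locus with Dnaaf3 and an antisense RNA, and Actc1 with Gjd2 and 2 noncoding RNAs. These were at most 3.17 FPKM in either fraction. Tmod1 shared its locus with Xpa, Ncbp1, Tstd2 and a small RNA, and Ncbp1, a cap-binding protein gene, was more abundant than Tmod1 itself, with 52.6 FPKM in the soluble extract and 16.3 in the pellet.

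Troponin T and troponin I genes lie near each other in pairs, and whether other genes lie between them was not examined. Tnni1 lies 25325 bp from Tnnt2 on chromosome 1, between the RefSeq spans (GRCm38.p6, equal to mm10 in its coordinates). The log2 folds of Tnni1 and Tnnt2 were -1.25 and -0.51, a difference beyond the spike-in scatter. On chromosome 7, Tnni3 lies 2329 bp from Tnnt1, the slow skeletal troponin T gene. Tnnt1 had 8.39 FPKM in the soluble extract and 1.36 in the pellet, and its log2 fold was -0.87. The fast skeletal pair, Tnni2 and Tnnt3, lies 54360 bp apart and was low, with 2.09 and 2.79 FPKM in the soluble extract and 0.764 and 1.70 in the pellet. Within the first pair Tnnt2 was 4.86 times above Tnni1 in the soluble extract, and within the second Tnni3 was 81.1 times above Tnnt1.

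Tpm1 (ENSMUSG00000032366.11, chromosome 9, 67022590 to 67049406), the alpha-tropomyosin gene, had 476.7 FPKM in the soluble extract and 173.7 in the pellet. It was rank 76 among protein-coding loci in the soluble extract and rank 13 in the pellet, the highest pellet rank of a member after Tnnt2. Its log2 fold was 0.30 on the spike-in scale and -1.46 on the FPKM scale.

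Tpm2 (ENSMUSG00000028464.12, chromosome 4, 43514711 to 43523765), the beta-tropomyosin gene, had 254.4 FPKM in the soluble extract and 49.4 in the pellet, and its log2 fold was -0.61. The tropomyosin pair was the one whose proportions differed most between the fractions, among the 3 pairs of related members compared. Tpm1 exceeded Tpm2 by 1.87 times in the soluble extract and by 3.52 times in the pellet, a difference of 0.91 on the log2 scale, whatever the scaling. Both genes make several isoforms by alternative promoters and splicing, and the table holds 1 value per gene, so isoforms were not resolved.

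Actc1 (ENSMUSG00000068614.7, chromosome 2, 114009601 to 114068324), the cardiac alpha-actin gene, was close to balance. It had 331.9 FPKM in the soluble extract and 88.8 in the pellet, and its log2 fold was -0.15 on the spike-in scale and -1.90 on the FPKM scale. In the authors' deposited table its chromatin enrichment was 0.902. The actin genes have nearly identical coding sequences, so fragments can be misassigned among them. Of its relatives, Acta2, the smooth muscle alpha-actin gene, was 4.63 times above Actc1 in the soluble extract and 2.51 times in the pellet, and its log2 fold was -1.03. The cytoplasmic gamma-actin gene Actg1 had 224.0 and 51.6 FPKM, a log2 fold of -0.36.

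Tmod1 (ENSMUSG00000028328.9, chromosome 4, 46038935 to 46196311), which encodes the tropomodulin that caps the pointed end, had 36.7 FPKM in the soluble extract and 13.1 in the pellet. Its log2 fold was 0.26, at the median of protein-coding loci. Lmod2 (ENSMUSG00000029683.6, chromosome 6, 24597771 to 24605414), which encodes cardiac leiomodin, was the least abundant member. It had 14.3 FPKM in the soluble extract and 5.999 in the pellet, with the fold at 0.50 in log2, the highest of the members. The 2 pointed-end genes did not differ in fold beyond the spike-in scatter (0.24), and on the FPKM scale they had -1.49 and -1.25.

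**Figure D2:**
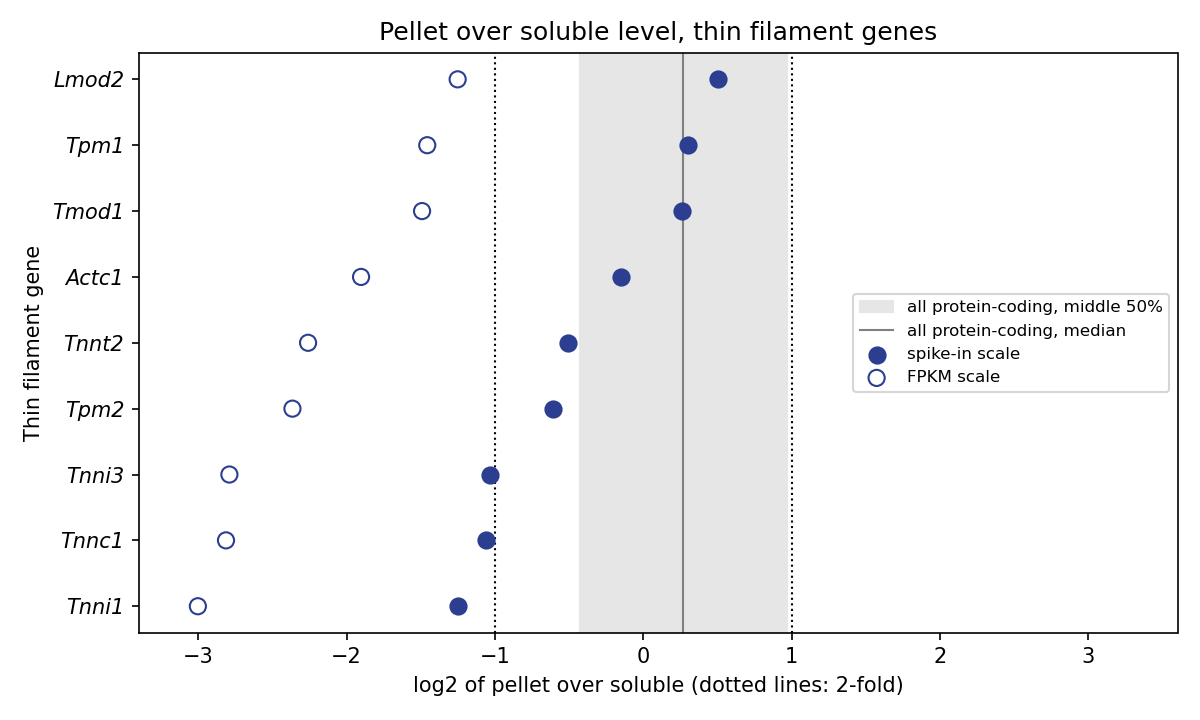
The log2 of pellet over soluble level for each of the 9 genes, on the spike-in scale (filled) and the FPKM scale (open), with the middle 50% and the median of protein-coding loci on the spike-in scale in grey and dotted lines at 2-fold. Tnni3, Tnnc1 and Tnni1 lie past the lower dotted line when filled, and all 9 lie past it when open.

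Across the 9 members the correlation of log2 mean FPKM and log2 fold was -0.36 (Pearson) and -0.18 (Spearman), beside -0.35 and -0.32 across the 11397 protein-coding loci. Mean level and fold are computed from the same soluble and pellet values, so they are not independent. In the soluble extract the members spanned 71.6 times, in the order Tnnt2, Tnni3, Tpm1, Actc1, Tpm2, Tnni1, Tnnc1, Tmod1 and Lmod2. In the pellet they spanned 35.6 times, with Tpm1 before Tnni3 and Tmod1 before Tnnc1. Among protein-coding loci the median fold was lower in more abundant ones: 0.21 between 5 and 50 FPKM, -0.74 between 50 and 500, and -1.45 from 500 upwards. Tpm1 lay above 83.2% of the 945 loci between 50 and 500 FPKM, and Actc1 above 73.0%. Tnnc1 had the opposite place, above 7.81% of the 6824 loci between 5 and 50 FPKM. Tnni3, Tnni1, Tpm2, Tmod1 and Lmod2 lay above 29.4% to 61.7% of the loci at their level.

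Gene span was compared in the same way, since long genes as a group lay further towards the pellet. The median fold of protein-coding loci was -0.68 under 5 kb, -0.25 from 5 to 10 kb, 0.03 from 10 to 20 kb, 0.33 from 20 to 50 kb and 0.79 from 50 kb. By its full RefSeq span, Tnni1 stood apart from its class. It spans 27957 bp by RefSeq, and its fold was above only 2.09% of the 3018 loci of 20 to 50 kb. Tpm1, with 27.1 kb, was above 48.2% of that same class. The Tnni1 span runs from 135783033 to 135810989, but the upstream windows of its listed starts end inside it, at 135799420 and 135799510. From those starts the gene is shorter, and its place among loci of that shorter span was not tested. Lmod2 spans 7.6 kb and was above 76.8% of the 1325 loci of 5 to 10 kb. The short genes Tnnc1 (3.4 kb) and Tnni3 (4.4 kb) were above 35.2% and 36.2% of theirs. Actc1, Tpm2, Tnnt2 and Tmod1 were above 54.3%, 34.1%, 27.2% and 25.4% of the loci in their classes. Across the 9 members the correlation of log10 span and log2 fold was 0.37 (Pearson) and 0.23 (Spearman), beside 0.41 and 0.44 across 10726 protein-coding loci. All genes share the same pooled libraries and are not independent replicates.

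**Figure D3:**
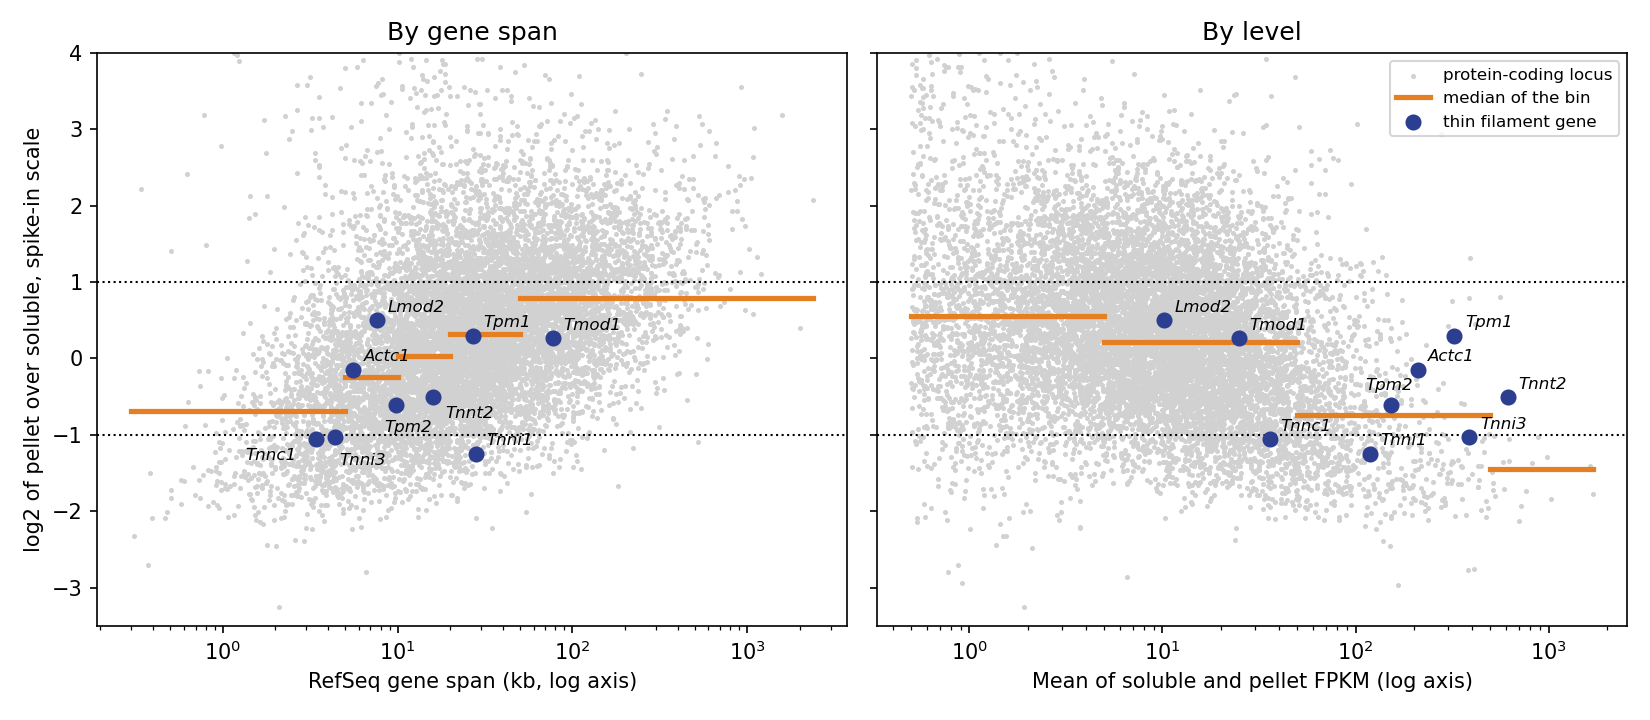
The log2 fold on the spike-in scale against RefSeq gene span in kb (left) and against the mean of both FPKM values (right), both on log axes, with protein-coding loci in grey, the median of each bin in orange and the 9 thin filament genes in blue. The axis ends at -3.5 and 4, which leaves out 64 loci, and Tnni1 lies far below the median of genes of its full RefSeq span while Tpm1 lies on it.

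Upstream sequence from RefSeq on GRCm38.p6 was matched for all 9 members, with 11 listed transcription starts. In the 250 bases before each start, both strands were searched for motifs of muscle promoters, beside the 32841 windows of the same length in the RefSeq set. The CArG box, the site of serum response factor, was in 1 of 9 members (1 of 11 starts) and in 1.47% of all windows. The MCAT motif CATTCC, a site of TEAD factors, was in 4 of 9 members (Tnnt2, Tnnc1, Tpm1 and Tmod1). That was 4 of 11 starts, against 12.6% of windows. The E-box CANNTG was in 7 of 9 members (9 of 11 starts) and in 66.2% of windows. The share of windows compares with the count of starts, since some members have more than 1 start. The windows of the Tnni1 starts overlap and share E-boxes, so those starts are not separate sequence. Neither TATAAA nor the MEF2 box was found in these windows, against 12.4% and 2.92% of all windows. Only the exact letters TATAAA were searched, so other forms of a TATA box are not covered. No motif overlapped another at the sites printed below. The stretches that hold the CArG box and the MCAT motifs nearest to a start are shown, each 5′ to 3′ along the gene with the motif in capitals, where GGAATG is CATTCC read on the opposite strand.
Actc1, chr2:114052876-114052975, minus strand, CArG box from 47 to 38 bases before the start: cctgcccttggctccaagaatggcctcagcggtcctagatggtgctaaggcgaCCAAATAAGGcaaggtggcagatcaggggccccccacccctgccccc
Tnnc1, chr14:31208212-31208311, plus strand, MCAT from 58 to 53 bases before the start: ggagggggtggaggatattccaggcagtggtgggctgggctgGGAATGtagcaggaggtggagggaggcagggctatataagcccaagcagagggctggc
Tnnt2, chr1:135836295-135836324, plus strand, MCAT from 27 to 22 bases before the start: tctcctgctgcaCATTCCtccctccgcggg
Tpm1, chr9:67049252-67049281, minus strand, MCAT from 56 to 51 bases before the start: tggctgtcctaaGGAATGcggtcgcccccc
The 4 members with MCAT were spread over the order of folds, from Tpm1 at 0.30 and Tmod1 at 0.26 through Tnnt2 at -0.51 to Tnnc1 at -1.06. A match is a description of letters and says nothing of binding in these cells.

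Other genes of the thin filament and its regulation, from a list of 26, had a wider spread of folds than the members. Of these, 25 had a row (Actb, the cytoplasmic beta-actin gene, had none) and 22 passed 0.5 FPKM. On the spike-in scale 4 lay at least 2-fold towards the pellet, 4 towards the soluble extract and 14 within 2-fold, and the median was -0.01. Over protein-coding loci 24.0% lay that far towards the pellet and 10.6% towards the soluble extract. On the FPKM scale 0 were higher and 17 lower, against 2.25% and 68.2%. Cfl1, the gene for the actin-severing protein cofilin, was lowest at -1.61, with 282.8 FPKM in the soluble extract and 27.5 in the pellet. Xirp1, whose product binds actin at the intercalated disc, was highest at 1.71, with 9.16 and 8.85 FPKM. Its coordinates are shared with 8 other loci, of which Wdr48 was more abundant in the soluble extract, at 13.9 FPKM, with a log2 fold of 0.20. Nebl, the gene for the cardiac nebulin relative nebulette, had 125.2 and 87.4 FPKM and a log2 fold of 1.23.

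Genes of the neighbouring sarcomere structures were compared by their counts and medians. Of 10 thick filament and titin genes listed, 9 had a row (Ttn, for titin, had none) and 5 passed 0.5 FPKM. Of these 5, 1 lay at least 2-fold towards each fraction, and the median was -0.02. Of 16 Z-disc and M-band genes listed, 15 had a row (Myom1 had none) and 14 passed. Of these 14, 5 lay at least 2-fold towards the pellet and 1 towards the soluble extract, and the median was 0.53. The shares over protein-coding loci were 24.0% towards the pellet and 10.6% towards the soluble extract. On the FPKM scale these medians were -1.78 and -1.22, beside -2.26 for the thin filament members. No test of a difference between these lists was possible with 1 value per fraction.

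**Figure D4:**
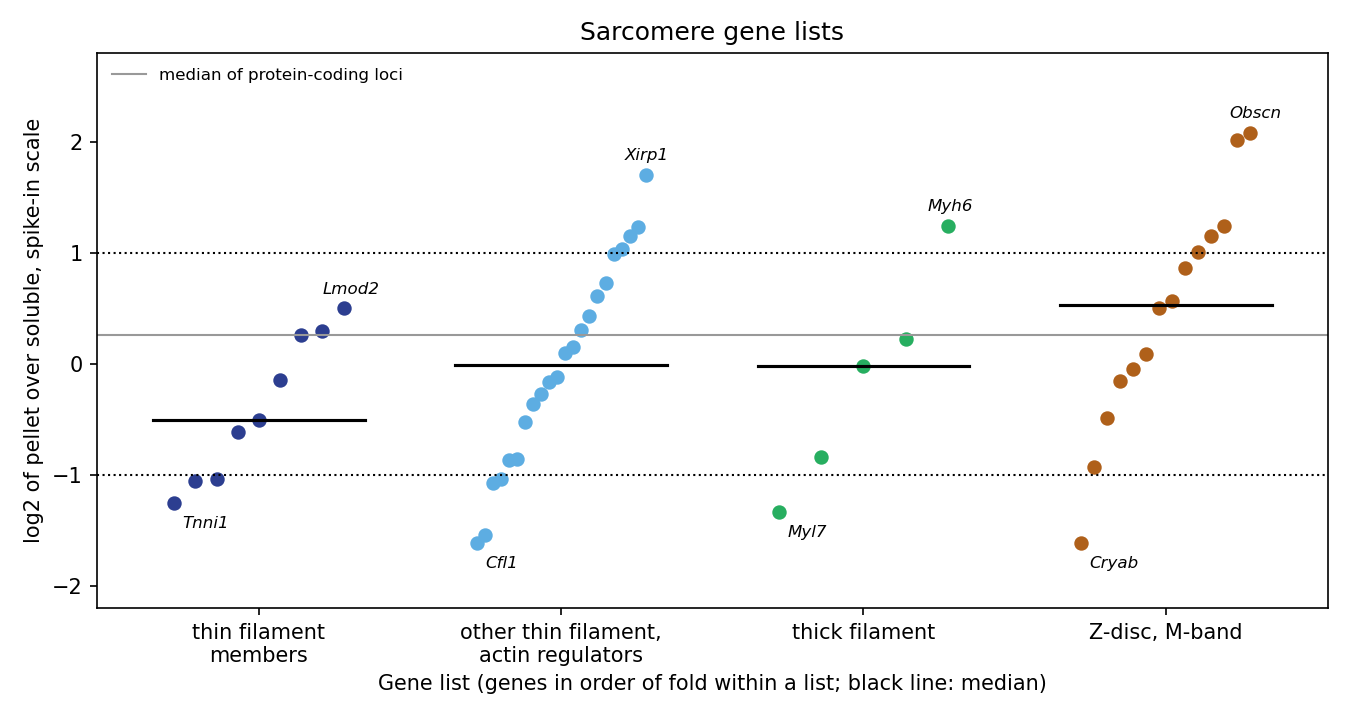
The log2 fold on the spike-in scale for each gene that averaged 0.5 FPKM or more, in 4 lists, with the list's median as a black line, the median of protein-coding loci in grey and dotted lines at 2-fold. The 9 thin filament members run from -1.25 to 0.50, and the Z-disc and M-band genes from -1.61 to 2.08.

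For the members at the ends of the order, the 3 protein-coding loci nearest in both log2 FPKM values were listed. Over these 2 pooled values, the nearest to Tnni1 were Sdhc, of respiratory complex II, at a distance of 0.025, Atp5j, of the ATP synthase (0.035), and Rpl7a, a ribosomal protein gene (0.040). The nearest to Lmod2 were Stx18 (0.015), Fbxo42 (0.017) and Acss2 (0.021). The distance is on the log2 scale, and with many loci close together it describes levels only.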

How the data were processed

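Nuclear RNA of HL-1 cells was measured in 2 fractions, with 3 libraries each. Libraries were directional and made after depletion of ribosomal RNA, per the labels' protocols. The submitters' processing notes name the build mm10 and the tools HISAT2, SAMtools, Cufflinks, Cuffdiff and bedtools, without versions or settings. The authors deposited 1 table with a pooled FPKM per fraction, a pellet signal rescaled by spike-ins, the ratio of rescaled pellet to soluble, and log10 values of the total and the ratio, per the file headers.

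Of 30687 lines, 1945 repeats were dropped, leaving 28660 loci beside 82 spike-ins. The factor, 3.37, comes from a least-squares line of soluble against pellet FPKM of the spike-ins, with no intercept, and the product was checked against the deposited rescaled column. Loci that averaged 0.5 FPKM or more were compared, a difference was a fold of at least 2, and no pseudocount was added. The fold calculation was tested on simulated data. Folds carry no p-value because replicates are pooled. Starts in the table count from 0, and 1 was added. Alternatives were the FPKM scale, a median spike-in ratio, pseudocounts, filters and fold thresholds. All members were named; of the other genes, those with the largest folds or levels, beside paralogs and genomic neighbours of members, which were named after their values were seen. Nearest genes were taken by Euclidean distance on log2 FPKM. Members and lists were chosen with earlier results of these data known. Python 3.11.15 with pandas 2.3.3, numpy 2.4.6, scipy 1.17.1 and matplotlib 3.10.9 was used.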

Additional observations from a re-analysis of the deposited data

How the results depend on the processing

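Without the spike-in factor, on the FPKM scale, the count of members at least 2-fold lower in the pellet became 9 in place of 3, and the median log2 fold became -2.26. The log2 folds there were -1.90 for Actc1, -2.26 for Tnnt2, -2.79 for Tnni3, -3.002 for Tnni1, -2.81 for Tnnc1 and -2.36 for Tpm2. Those of Tpm1, Tmod1 and Lmod2 changed sign, to -1.46, -1.49 and -1.25. The alternative's own construction shows the cause, a constant shift of 1.75. With 1 FPKM added to both fractions, Lmod2 had 0.63 and Tnnc1 -0.93. With a 3-fold difference required, 0 members were lower, and with 1.5-fold 4 were. The count lower was 2 with the median spike-in ratio, 3.50 (Tnni3 no longer passed), and 2 with 1 FPKM added (Tnnc1 no longer passed). Filters of 0 and 5 FPKM and a pseudocount of 0.1 left the counts at 3 lower and 0 higher. For the counts under other thresholds, spike-in ratio, pseudocounts and filters, shares over all loci were not computed. They therefore describe the members only and are not set against a background. No paired analysis was possible because the replicates of each fraction are pooled into 1 value, and for the same reason no replicate could be left out. Depth is unknown.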

Other observations

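The fast skeletal troponin C gene, Tnnc2, was above the cardiac gene Tnnc1 in both fractions, by 2.58 times in the soluble extract and 1.85 times in the pellet. This stands apart from the other fast skeletal troponins, Tnni2 and Tnnt3, which had 2.09 and 2.79 FPKM in the soluble extract, where Tnnc2 had 163.0. In the table Tnnc2 shares its coordinates with Ube2c, a ubiquitin-conjugating enzyme gene of mitosis, which had 101.9 FPKM in the soluble extract and 10.5 in the pellet. The log2 folds of the 2 genes were -1.54 and -1.53 on the spike-in scale. Whether fragments of Ube2c contribute to the Tnnc2 value was not tested.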
